A study of Mus musculus with 8 samples.

Results

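The BCL-2 family members described here are 10 mouse genes, taken by symbol from the 53465 gene IDs of the count files and followed through 8 RNA-seq libraries of regulatory T cells (Tregs). They comprise 5 pro-survival genes (Bcl2, Bcl2l1, Mcl1, Bcl2a1b and Bcl2a1d), 3 BH3-only death genes (Bcl2l11, Bbc3 and Pmaip1) and 2 effectors (Bax and Bak1). All 10 passed the filter on low counts and were among the 14443 genes tested. CD4+ T cells of wild-type C57BL/6 mice, from spleen and lymph nodes, were turned into Tregs in culture. Plates carried anti-CD3 (5 µg/mL), and the medium contained TGF-β at 5 ng/mL, IL-2 at 100 U/mL, anti-CD28 at 0.5 µg/mL and blocking antibodies to IFN-γ, IL-12 and IL-4 at 10 µg/mL. After 72 h the cells were split: the 4 treated libraries had BMS309403 at 50 µM, which the submitters use as an inhibitor of FABP5, a fatty acid carrier, and the 4 control libraries had none. The comparison asks how the drug changed expression of the genes that set survival and death. The labels give no vehicle, no length of exposure and no age, so that an effect of FABP5 inhibition and any other effect of the compound or its solvent cannot be told apart.

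Proteins of this family meet at the outer mitochondrial membrane. BH3-only proteins are switched on by stress or by loss of cytokine, the pro-survival proteins hold them and the effectors in check, and BAX and BAK, once freed, open the membrane and release cytochrome c, which starts the caspases. Tregs are known to depend on MCL-1 and to be limited in lifespan by BIM, the product of Bcl2l11, while IL-2 supports BCL-2.

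Libraries held 32.9 M to 44.6 M counts. In the control libraries the mitochondrial genes took 0.639% to 0.781% of counts, and in the treated libraries 0.484% to 0.608%. The labelled cell type showed in its markers: the summed level of 9 T cell and Treg genes ranged from 5285 to 5888 CPM (counts scaled to library size) without the drug and from 6557 to 6900 CPM with it. Called higher were 5 genes (Foxp3, Il2ra, Ikzf2, Ikzf4 and Tnfrsf18), and 2 were lower, Cd3e (263 to 191 CPM) and Cd3d (222 to 173 CPM). Il2ra, at 2562 and 3412 CPM, made up the largest part of the sum. Summed CD8 T cell markers ranged from 9.89 to 14.3 CPM without and from 10.2 to 14.9 CPM with the drug, NK cell markers at 1.25 to 2.82 and 2.58 to 5.06 CPM, and erythroid markers at 0.274 to 0.565 and 0.181 to 0.356 CPM. Ncr1, Klra8, Hbb-bs and Hba-a2 had no count in any library, while Eomes, listed as an NK marker, was higher after treatment. In bulk RNA, fewer cells of a type and less RNA per cell cannot be told apart.

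Of the 5 pro-survival members, 2 were called higher and 2 lower. Only 1 of the 3 BH3-only members (Bcl2l11) and 1 of the 2 effectors (Bak1) were called, both lower. The BH3-only share, 33.3%, was near the 36.8% of all tested genes. Bcl2l1 rose 2.30-fold and Bcl2 1.14-fold, while Bcl2a1b, Bcl2a1d, Bcl2l11 and Bak1 fell by 1.25-fold to 1.43-fold. Mcl1, Bbc3, Pmaip1 and Bax did not pass the test, though Pmaip1 was called lower when the replicate number was fitted as a block. Of the 10 members, 2 were thus called higher and 4 lower, with 0.05 as the threshold on the adjusted p (edgeR's quasi-likelihood test, Benjamini-Hochberg over all tested genes). Among all tested genes 36.8% were called, 18.7% higher and 18.1% lower. The control and treated libraries did not overlap for 5 members, against 33.8% of tested genes. The members' median log2 fold change was -0.09, beside 0.01 over all tested genes.

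**Figure D1:**
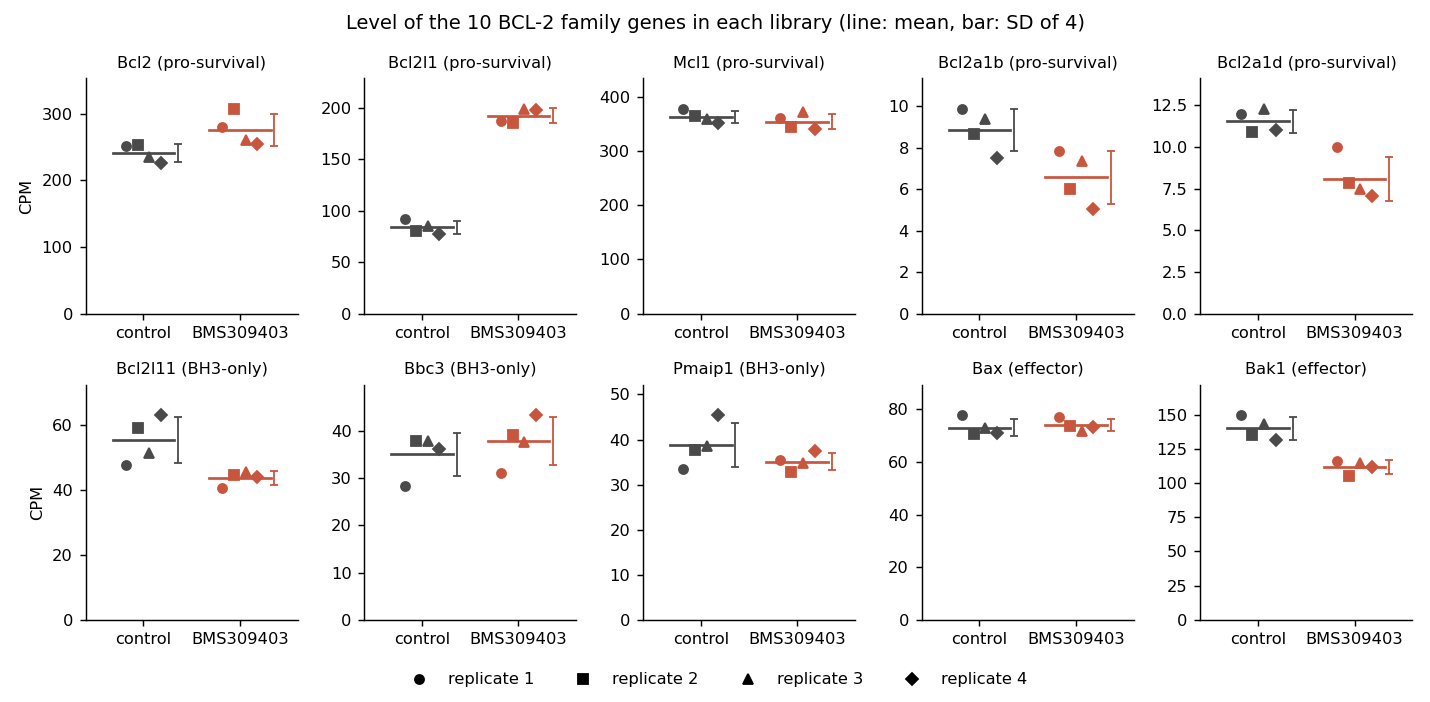
Level of each BCL-2 family gene in CPM (vertical axis from 0) in the control and BMS309403 libraries; each symbol is a library, its shape the replicate number, the line the mean and the bar the SD of 4. Bcl2l1 lay between 77.4 and 92.2 CPM in control and between 185 and 199 CPM in BMS309403 libraries, while Mcl1 and Bax overlapped between the groups.

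Bcl2l1 encodes BCL-XL, a pro-survival protein of activated T cells. The gene (ENSMUSG00000007659) spans chromosome 2, 152780668 to 152831728, on the minus strand of GRCm38. In control libraries 1 to 4 it was at 92.2, 80.4, 85.3 and 77.4 CPM, and in treated libraries 1 to 4 at 187, 185, 199 and 198 CPM. Every treated library lay at more than 2 times the level of any control library. Group means of 83.8 ± 6.47 and 192 ± 7.22 CPM (SD, n = 4) gave a log2 fold change of 1.20 (SE 0.06, 95% interval 1.08 to 1.32, edgeR adjusted p = 2.21e-08). The gene counts add up all 9 annotated transcripts, so that the long pro-survival form and the short form of Bcl2l1, which is known to promote death, cannot be told apart.

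The 250 bases before the most upstream annotated start of Bcl2l1 are shown because this gene moved most; they were searched for 5 motifs and held none of them, so no base is in capitals. The window is chr2:152831729-152831978 on the minus strand (RefSeq, GRCm38.p6), outside any annotated exon.
Bcl2l1 upstream: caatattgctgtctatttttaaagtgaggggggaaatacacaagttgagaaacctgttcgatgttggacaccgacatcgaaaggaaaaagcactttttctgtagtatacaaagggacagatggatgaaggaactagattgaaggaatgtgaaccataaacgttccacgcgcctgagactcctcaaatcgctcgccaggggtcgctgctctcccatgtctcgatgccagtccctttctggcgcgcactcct

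Bcl2, the founding pro-survival gene of the family (ENSMUSG00000057329, chromosome 1, 106538178 to 106714274, minus strand), was at 252, 253, 235 and 226 CPM in control libraries 1 to 4. In treated libraries 1 to 4 it was at 280.0, 307, 260.3 and 255 CPM. The lowest treated library exceeded the highest control library, though by less than 2 CPM. Group means of 242 ± 13.2 and 276 ± 23.7 CPM (SD, n = 4) gave a log2 fold change of 0.19 (95% interval 0.05 to 0.33, edgeR adjusted p = 0.0319). The call was lost in 4 of the 8 fits that left out a library: leaving out control replicate 3 or 4 gave an adjusted p of 0.0904 or 0.0791, and leaving out treated replicate 1 or 2 gave 0.0632 or 0.0982. Bcl2 was higher in the treated library of all 4 same-numbered pairs, and the replicate block kept its call (adjusted p = 0.000146). In the 4 fits without that call Bcl2l1 was the single member called higher.

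Mcl1 encodes a short-lived pro-survival protein that Tregs are known to need (ENSMUSG00000038612, chromosome 3, 95658788 to 95663176, plus strand). Its level was 377, 364, 358 and 352 CPM in control libraries 1 to 4 and 361, 343, 371 and 340.4 CPM in treated libraries 1 to 4. The groups overlapped, and the log2 fold change was -0.04 (95% interval -0.13 to 0.06, edgeR adjusted p = 0.545). The abundance of the MCL-1 protein, which is controlled largely by its turnover, was not measured.

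Bcl2a1b and Bcl2a1d encode A1, a pro-survival protein induced by receptor signalling in lymphocytes, and both copies fell. The mouse carries several near-identical copies on chromosome 9. Bcl2a1d (ENSMUSG00000099974) lies at 88723285 to 88731914 on the minus strand and Bcl2a1b (ENSMUSG00000089929) at 89199209 to 89207827 on the plus strand. Their coding sequences of 516 bases share 510 bases, or 98.8%, and differ by G4T, T48C, A94C, G312A, C381G and T490A (the Bcl2a1b base, the position from 1 at the first coding base, then the Bcl2a1d base). The first 90 coding bases are shown because they show how little separates the copies; the bases that differ are in capitals.
Bcl2a1b coding bases 1 to 90: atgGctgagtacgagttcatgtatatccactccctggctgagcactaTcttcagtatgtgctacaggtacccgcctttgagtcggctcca
Bcl2a1d coding bases 1 to 90: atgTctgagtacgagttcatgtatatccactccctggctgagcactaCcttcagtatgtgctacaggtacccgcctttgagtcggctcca

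Of all stretches of 50 bases in the annotated transcripts, 79.2% for Bcl2a1b and 79.5% for Bcl2a1d also occur in another gene, and of stretches of 100 bases 56.8% and 54.7%. A further gene, Gm29094, covers 49.1% of the Bcl2a1b exon bases on the same strand and held 10 counts over the control group and 7 over the treated group. The sources used here do not say how reads with several matches were counted, so the split between the copies is uncertain.

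As deposited, Bcl2a1b was at 9.85, 8.68, 9.40 and 7.51 CPM in control libraries 1 to 4 and at 7.84, 6.01, 7.37 and 5.05 CPM in treated libraries 1 to 4. Treated replicate 1 lay above control replicate 4, so that the groups overlapped. Its log2 fold change was -0.43 (95% interval -0.73 to -0.13, edgeR adjusted p = 0.0270), and the adjusted p was 0.0547 or 0.0741 when control replicate 2 or 3 was left out and 0.0780 or 0.0691 when treated replicate 2 or 4 was. Bcl2a1b was lower in the treated library of all 4 same-numbered pairs, with log2 differences of -0.57 to -0.33, and the replicate block kept its call (adjusted p = 0.000108). Bcl2a1d was at 12.0, 10.9, 12.3 and 11.0 CPM in control libraries 1 to 4 and at 10.0, 7.82, 7.50 and 7.04 CPM in treated libraries 1 to 4. No treated library reached the lowest control library, and the log2 fold change was -0.51 (95% interval -0.74 to -0.28, edgeR adjusted p = 0.00273).

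The sum over Bcl2a1a, Bcl2a1b, Bcl2a1c and Bcl2a1d does not depend on how reads were divided among these copies. Reads left uncounted because they match several genes would still be missing from it, and Gm29094 is not included. From 20.5 ± 1.59 CPM without the drug it went to 14.8 ± 2.45 CPM with it (SD, n = 4), 1.39-fold lower (log2 fold change -0.47, SE 0.11, edgeR adjusted p = 0.00432). Control libraries ranged from 18.7 to 21.9 CPM and treated libraries from 12.2 to 18.0 CPM, with no overlap. Bcl2a1a had 1 and 9 counts in the control and treated groups and Bcl2a1c 17 and 10, and both were too low to test. B cells and myeloid cells also express A1. Summed markers of B cells, with 1 of 5 tested genes lower, ranged from 5.86 to 8.72 CPM without and from 4.74 to 7.45 CPM with the drug. Those of myeloid cells, with 1 of 3 tested genes lower, were at 2.05 to 3.63 and 1.11 to 3.49 CPM. None of these markers was at 0 in all libraries, and their part in the fall of the A1 copies was not tested.

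Among the BH3-only genes, Bcl2l11 fell while Bbc3 and Pmaip1 did not pass the test. Bcl2l11 encodes BIM (ENSMUSG00000027381, chromosome 2, 128126038 to 128162547, plus strand), which kills lymphocytes deprived of cytokine. It was at 47.6, 59.1, 51.2 and 62.9 CPM in control libraries 1 to 4 and at 40.4, 44.7, 45.6 and 43.8 CPM in treated libraries 1 to 4. The highest treated library stayed under the lowest control library, and the control libraries were spread more widely (SD 7.05 against 2.28 CPM). The log2 fold change was -0.34 (95% interval -0.52 to -0.17, edgeR adjusted p = 0.00613).

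Bbc3 encodes PUMA, a BH3-only protein known as a p53 target (ENSMUSG00000002083, chromosome 7, 16308393 to 16318205, plus strand). It was at 28.2, 37.8, 37.9 and 36.1 CPM in control libraries 1 to 4 and at 31.1, 39.0, 37.7 and 43.3 CPM in treated libraries 1 to 4. Replicate 1 was the lowest library of both groups, and the groups overlapped. The log2 fold change was 0.11 (95% interval -0.12 to 0.34, edgeR adjusted p = 0.456).

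Pmaip1 encodes NOXA, the BH3-only partner of MCL-1 and A1. It was at 33.4, 37.8, 38.6 and 45.4 CPM in control libraries 1 to 4 and at 35.4, 32.7, 34.8 and 37.5 CPM in treated libraries 1 to 4. The groups overlapped because control replicate 1 lay below treated replicates 1, 3 and 4. The log2 fold change was -0.15 (95% interval -0.32 to 0.03, edgeR adjusted p = 0.184). Pmaip1 was called lower with the replicate number as a block (log2 fold change -0.14, adjusted p = 0.0282) and without control replicate 1 (-0.21, adjusted p = 0.0268).

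Windows of 250 bases before RefSeq start sites were used for 9 members, 14 windows in all and none for Pmaip1, and were searched on both strands for the 5 motifs. The FOXO motif GTAAACA was present in a Bcl2l11 and a Bbc3 window, and in 3.17% of 32851 such windows of all genes. FOXO factors are known activators of both genes, and these windows are shown with the match in capitals. The Bcl2l11 window is chr2:128125788-128126037 and the Bbc3 window, where the match lies on the opposite strand, is chr7:16310011-16310260, both on the plus strand of GRCm38.p6 and outside annotated exons.
Bcl2l11 upstream: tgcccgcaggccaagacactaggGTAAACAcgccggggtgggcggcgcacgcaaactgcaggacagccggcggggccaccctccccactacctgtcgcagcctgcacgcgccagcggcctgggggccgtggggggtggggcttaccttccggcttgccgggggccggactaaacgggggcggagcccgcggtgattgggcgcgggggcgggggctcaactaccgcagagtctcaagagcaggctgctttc
Bbc3 upstream: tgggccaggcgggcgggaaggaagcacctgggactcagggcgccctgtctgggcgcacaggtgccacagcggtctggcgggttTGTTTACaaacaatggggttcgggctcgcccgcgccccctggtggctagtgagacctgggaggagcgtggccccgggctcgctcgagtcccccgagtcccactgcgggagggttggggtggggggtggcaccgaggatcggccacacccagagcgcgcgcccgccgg

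The ATF4-CHOP motif (TGATG, any base, then AA) occurred in the Bcl2a1b window and in 3.45% of all windows; 64 bases of that window, the match among them, lie in the first exon of the GENCODE M21 model. The STAT motif (TTC and GAA around 3 bases), the interferon response element (GAAA, 2 bases, GAAA) and the NF-κB motif (GGGA, any base, TT, any base, CC) were in no member window, against 7.02%, 2.98% and 0.98% of all windows. These matches are descriptions of the letters only, and several windows of Bcl2l1, Bcl2a1b, Bcl2a1d and Bak1 overlap exons of GENCODE M21.

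The effectors parted. Bak1 encodes BAK, which resides in the mitochondrial membrane (ENSMUSG00000057789, chromosome 17, 27019810 to 27029009, minus strand). It was at 149.6, 135, 143 and 132 CPM in control libraries 1 to 4 and at 116, 105, 115 and 112 CPM in treated libraries 1 to 4. All treated libraries lay below all control libraries, and the log2 fold change was -0.32 (95% interval -0.43 to -0.21, edgeR adjusted p = 0.000406). Ggnbp1, a gene on the other strand, shares 18.2% of the Bak1 exon bases but held 308 counts over the control group and 301 over the treated group, against at least 4445 for Bak1 in each library.

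Bax, whose protein moves to mitochondria when activated (ENSMUSG00000003873, chromosome 7, 45461697 to 45466898, minus strand), was at 77.8, 70.5, 72.8 and 71.2 CPM in control libraries 1 to 4. In treated libraries 1 to 4 it was at 77.2, 73.5, 71.9 and 73.3 CPM. The groups overlapped almost fully, and the log2 fold change was 0.02 (95% interval -0.08 to 0.11, edgeR adjusted p = 0.775).

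**Figure D2:**
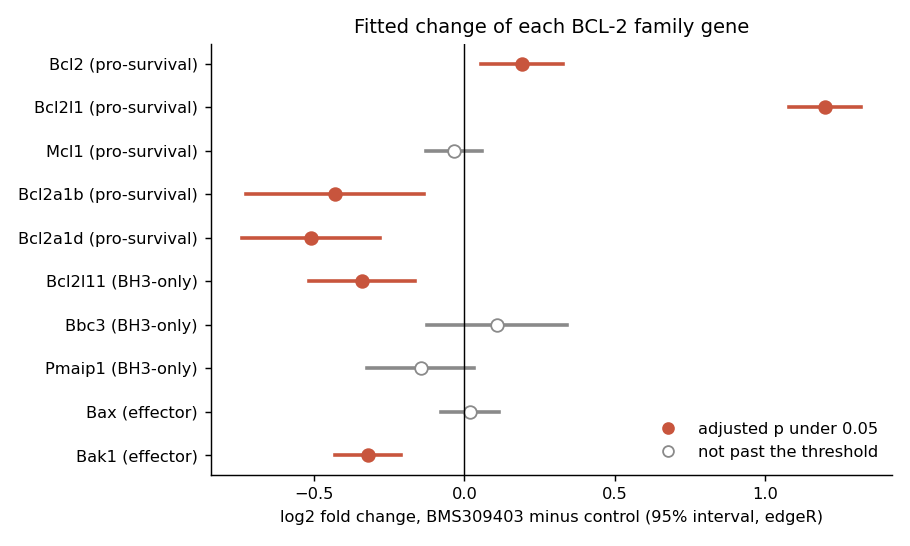
Fitted log2 fold change of each BCL-2 family gene (BMS309403 minus control, horizontal axis) with its 95% interval; filled points passed an adjusted p of 0.05 in edgeR's quasi-likelihood test. The interval of Bcl2l1, 1.08 to 1.32, lies apart from those of the other 9 genes, which all end at or below 0.34.

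Levels of different genes were compared per kilobase of merged exon (CPM per kb). In control libraries the order of mean levels was Mcl1 at 106, Bak1 at 58.1, Bax at 46.4, Bcl2 at 26.4, Bcl2l1 at 18.3, Bbc3 at 16.5, Pmaip1 at 14.2, Bcl2a1d at 13.4, Bcl2a1b at 10.8 and Bcl2l11 at 6.88 CPM per kb. Mcl1 stood at percentile 97.1 of all tested genes by this measure and Bcl2l11 at percentile 55.8. In treated libraries Bcl2l1 was at 41.9 CPM per kb, above Bcl2 at 30.1, whereas in CPM, without division by length, Bcl2 stayed above Bcl2l1 (276 against 192 CPM). Per kb, Bax (46.9) and Bak1 (46.5) were at one level in treated libraries, whereas in CPM Bak1 stayed above Bax (112 against 74.0 CPM). Within the summed pro-survival level, Bcl2l1 made up 10.4% ± 0.427 without and 21.8% ± 1.21 with the drug (SD, n = 4), and Mcl1 60.7% ± 0.896 and 53.6% ± 0.906. Exon length was taken over all annotated transcripts, 9157 bases for Bcl2 and 4586 for Bcl2l1, and which exons these cells use was not measured, so the order of genes on this scale depends on those lengths. For Bcl2a1b and Bcl2a1d, 79.2% and 79.5% of 50-base stretches also occur in another gene. If reads with several matches were not counted, the levels of these copies, and the pro-survival sum, are too low here.

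Ratios within a library do not depend on scaling between libraries. Bcl2l1 over Bcl2l11, both per kb, was 2.71 ± 0.556 without and 7.73 ± 0.372 with the drug (SD, n = 4), with ranges of 2.15 to 3.40 and 7.26 to 8.11. Bcl2l1 over Bak1 went from 0.314 ± 0.00648 to 0.903 ± 0.0393, and Bcl2l1 over Bcl2 from 0.694 ± 0.0441 to 1.41 ± 0.166 on that scale; in CPM Bcl2 exceeded Bcl2l1 in all 8 libraries. Bax over Bak1, per kb, went from 0.798 ± 0.0211 to 1.01 ± 0.0468. Mcl1 over Pmaip1 was 7.59 ± 1.16 and 8.08 ± 0.565 and overlapped between the groups.

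Summed by class, the pro-survival members were at 175 ± 7.11 CPM per kb without and 193 ± 6.34 with the drug (SD, n = 4). The BH3-only members were at 37.5 ± 4.29 and 36.1 ± 2.83 and overlapped, and the effectors at 104.5 ± 5.33 and 93.4 ± 2.85. The ratio of the pro-survival to the effector sum went from 1.68 ± 0.0393 to 2.07 ± 0.0614, with ranges of 1.65 to 1.73 and 1.99 to 2.12. That of the pro-survival to the BH3-only sum was 4.73 ± 0.785 and 5.39 ± 0.575 and overlapped, because control replicate 1 stood at 5.85. Within the pro-survival sum Bcl2l1 rose from 18.3 to 41.9 CPM per kb and Bcl2 from 26.4 to 30.1, while both A1 copies fell. Within the effector sum Bak1 fell from 58.1 to 46.5, while Bax was at 46.4 and 46.9. The weight of each gene in a sum depends on the exon length used. These sums describe RNA and carry no test, and the pro-survival sum includes the A1 copies, whose levels are uncertain.

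**Figure D3:**
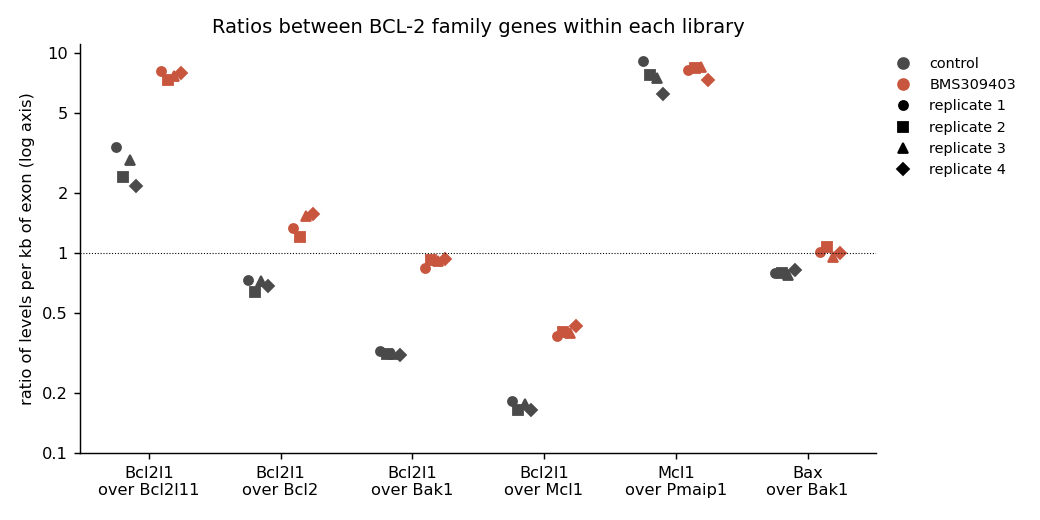
Ratios between BCL-2 family genes within each library, from levels per kilobase of exon, on a log axis; grey symbols are control and red symbols BMS309403 libraries, the shape gives the replicate number, and the dotted line marks equal levels. Bcl2l1 over Bcl2 lay between 0.635 and 0.731 in control and between 1.20 and 1.56 in treated libraries, while Mcl1 over Pmaip1 overlapped.

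By the rule for likeness, the genes whose log2 CPM over the 8 libraries followed Bcl2l1 most closely were Oasl2 (Pearson r = 0.998), an interferon-induced gene that went from 8.73 to 62.7 CPM, Slc7a5 (r = 0.998), which encodes an amino acid transporter and went from 416 to 756 CPM, and Sco1 (r = 0.997), which encodes a copper chaperone of mitochondria and went from 12.2 to 26.4 CPM. Of 9897 genes compared, 996 had r above 0.9; the 8 points form 2 groups that share a treatment, so any gene with a large and even rise scores high.

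Around the members, 6 lists were followed. They were chosen with earlier results of these data known, so a list's share of called genes is a description and no test of enrichment. Other BCL-2 homologues were called about as often (33.3%) as all tested genes (36.8%): of 12 tested, 1 rose and 3 fell, with a median log2 fold change of 0.01. Bid, a BH3-only gene that links death receptors to mitochondria, rose from 11.4 to 14.5 CPM (log2 fold change 0.34, edgeR adjusted p = 0.00255). Bnip3 and Bnip3l, BH3-like genes that act in mitophagy, fell by 0.83 and 0.60 on the log2 scale, from 235 to 132 CPM and from 206 to 136 CPM. Bok, an effector homologue below the 1 CPM rule and chosen after its values were seen, fell from 0.542 to 0.187 CPM (edgeR adjusted p = 0.00399). Bmf, a BH3-only gene, was at 11.8 and 9.01 CPM (adjusted p = 0.0716) and Bad at 16.4 and 16.1 CPM (adjusted p = 0.791). With the replicate block 2 of these genes were called higher and 5 lower, in a fit that called 52.4% of all tested genes.

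Of 14 tested genes in a list around the docking and control of BAX, BAK and MCL-1, which also holds calcium channels of the endoplasmic reticulum, 4 rose and 4 fell (57.1%, beside 36.8% of all tested genes; median log2 fold change 0.01). Itpr1, a calcium channel of the endoplasmic reticulum that pro-survival members bind, rose 1.47-fold and Itpr2 1.17-fold, the latter not called when control replicate 3, treated replicate 2 or treated replicate 4 was left out, with adjusted p-values of 0.0624, 0.0586 and 0.0570. Vdac1, a channel of the outer mitochondrial membrane, was 1.33-fold lower and Ywhaz, a 14-3-3 protein gene, 1.22-fold lower. Of the ubiquitin ligases known to mark MCL-1 for degradation, Huwe1 rose 1.20-fold (539 to 649 CPM) and Fbxw7 was 1.14-fold lower (32.3 to 28.4 CPM). In each of those 3 fits only 2 genes of this list were called higher.

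Downstream of mitochondria, 4 of 19 tested genes of the apoptosome, caspases and their inhibitors rose and 4 fell (42.1%, close to the 36.8% of all tested genes), with a median log2 fold change of -0.06. Of the inhibitor genes, Birc3 (137 to 189 CPM, edgeR adjusted p = 1.16e-05) and Birc2 (74.6 to 88.5 CPM, adjusted p = 0.0282) were higher. Birc6 (302 to 348 CPM, adjusted p = 0.0401) was also higher and Xiap was at 131 and 134 CPM (adjusted p = 0.624), both chosen after their values were seen. Higher too was Htra2, a mitochondrial protease, from 74.9 to 87.1 CPM. Casp6, a caspase gene, fell from 20.7 to 15.8 CPM, as did Cycs, the cytochrome c gene, from 62.0 to 51.9 CPM (adjusted p = 0.0464). Apaf1, the scaffold of the apoptosome, was at 66.8 and 64.6 CPM (adjusted p = 0.415), and Casp9 at 19.2 and 17.3 CPM (adjusted p = 0.122). With the replicate block 9 genes of this list were called lower, in a fit that called 25.8% of all tested genes lower. Cycs lost its call with limma-voom (adjusted p = 0.0530) and without any of 6 single libraries, control replicates 1 to 3 and treated replicates 2 to 4 (adjusted p 0.0550 to 0.118), and Birc2 with control replicate 3, treated replicate 2 or treated replicate 4 left out (0.0762, 0.0821 and 0.0886). Only 2 genes of the list rose without control replicate 3, treated replicate 2 or treated replicate 4, and only 2 fell without control replicate 2 or 3 or treated replicate 2, 3 or 4.

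In the death receptor pathway 7 of 15 tested genes rose and 4 fell (73.3%, beside 36.8% of all tested genes), and the list's median log2 fold change was 0.13. The ligand genes Fasl (2.69 to 5.26 CPM) and Tnfsf10, encoding TRAIL (130 to 179 CPM), rose, and so did the receptor gene Fas, from 21.6 to 34.5 CPM. Other genes of the list, chosen after their values were seen, did otherwise: the receptor gene Tnfrsf1a fell from 30.9 to 26.6 CPM (edgeR adjusted p = 0.0117), the adaptor genes Fadd and Tradd fell from 27.5 to 24.5 CPM and from 32.2 to 26.5 CPM, and the ligand gene Tnf was at 46.7 and 51.1 CPM (adjusted p = 0.203). Chosen in the same way, the receptor gene Tnfrsf10b rose from 12.3 to 14.6 CPM (edgeR adjusted p = 0.0243) and Ripk1 from 72.4 to 89.2 CPM (adjusted p = 0.00211). Cflar, which encodes the caspase-8 inhibitor cFLIP, rose from 118 to 147 CPM (edgeR adjusted p = 6.06e-05). The necroptosis genes parted, with Mlkl 1.86-fold higher at 8.25 CPM and Ripk3 1.37-fold lower.

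Among 20 transcription factors known to act on BCL-2 family genes, 13 rose and 3 fell (80.0%, beside 36.8% of all tested genes), and their median log2 fold change was 0.24. This list too was chosen with earlier results known, so an excess over all genes was not tested. The stress factors Atf3, Atf5 and Ddit3, which encodes CHOP, rose by 3.17, 2.14 and 1.33 on the log2 scale. Rel, an NF-κB subunit, and Myc rose 1.61-fold and 1.44-fold. Gfi1, a transcriptional repressor of lymphocytes, fell from 18.8 to 5.94 CPM. Foxo3, a FOXO factor chosen after its values were seen, was lower (103.8 to 93.1 CPM, edgeR adjusted p = 0.0374), and Foxo1 was at 248 and 244 CPM (adjusted p = 0.689).

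Of 19 tested p53 target genes, a list without Bbc3, Pmaip1 and Bax, 5 rose and 4 fell (47.4%, beside 36.8% of all tested genes; median log2 fold change 0.03). The stress-inducible Sesn2 rose 2.69-fold from 41.8 to 112 CPM, Rrm2b 1.47-fold, Tigar 1.31-fold and Aen 1.27-fold, whereas Sesn1 and Trp53inp1 were 1.59-fold and 1.34-fold lower. Leaving out control replicate 2, 3 or 4 took the adjusted p of Aen to 0.0932, 0.0850 or 0.0740, and leaving out treated replicate 1 or 2 took it to 0.0755 or 0.0503, so that its call was lost. Other genes of the list, chosen after their values were seen, went both ways. Cdkn1a rose from 148 to 185 CPM (edgeR adjusted p = 0.00114), and Btg2 fell from 120 to 97.9 CPM (adjusted p = 0.00633). Mdm2, a core p53 target, was at 83.3 and 88.5 CPM (adjusted p = 0.0842), with every treated library above every control library. Over all 6 lists, 34 of 99 tested genes rose and 22 fell.

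**Figure D4:**
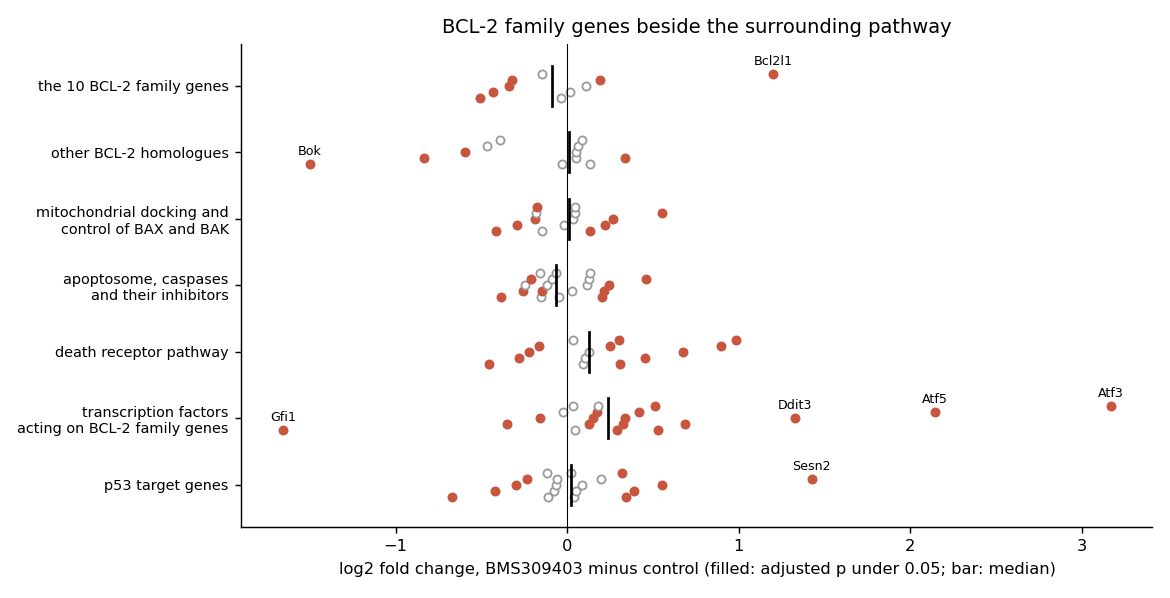
Log2 fold change (BMS309403 minus control, horizontal axis) of the 10 BCL-2 family genes and of the tested genes in 6 surrounding lists; each point is a gene, filled where the adjusted p was under 0.05, and the black bar is the median of the list. Genes beyond 1 on this scale are named; the medians run from -0.09 for the 10 genes to 0.24 for the transcription factors.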

How the data were processed

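Gene expression was measured by RNA-seq in 8 libraries, each with a file of read counts per Ensembl gene deposited by the authors; these are whole numbers and not normalized. STAR, featureCounts, DESeq2, deepTools and GRCm38 are named, without roles or versions, in the submitters' processing notes; strand setting, read length and treatment of multiply matching reads are not given in the sources used here. Symbols, found for 53274 IDs, coordinates and exon lengths came from GENCODE M21, and upstream sequences from RefSeq (GRCm38.p6). Titles gave groups and replicate numbers. The labels do not say that replicates were separate mice or cultures, so the p-values reflect only sample-to-sample spread, possibly technical.

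All genes were fitted with edgeR 4.0.16 (R 4.3.3): filterByExpr, TMM, quasi-likelihood F-test, treatment as the only term, Benjamini-Hochberg adjustment over 14443 genes, threshold 0.05. Intervals of 95% used the moderated degrees of freedom of that test. CPM divide each count by its TMM-adjusted library size. The fitting code was tested on simulated data. Same-numbered libraries deviated together (correlations 0.384, 0.145, 0.106 and 0.264 for numbers 1 to 4). For 7 of 8 libraries the best match in the other group carried the same number. The labels do not say that numbers pair samples, so the main fit and its calls leave this likely pairing out. An alternative fit with the number as a block called 52.4% of tested genes, against 36.8%, and also called Pmaip1 lower. Other alternatives were RLE and upper-quartile factors, no filter, a filter at 1 CPM in 4 libraries, DESeq2 1.42.0, limma-voom (limma 3.58.1), summed Bcl2a1 copies and leaving out each library.

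The members and gene lists were chosen with earlier results of these data known. By rule, all members and up to 6 called genes per list with at least 1 CPM, by size of change, were named, except 1 that is not reported here; likeness used genes of at least 5 CPM and a pseudocount of 0.5 CPM. Totals of 32.9 M to 44.6 M counts put at least 210 counts behind every member value.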

Additional observations from a re-analysis of the deposited data

How the results depend on the processing

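Leaving out each library in turn gave 1 to 2 members called higher, and log2 fold changes of 0.13 to 0.23 for Bcl2, -0.53 to -0.32 for Bcl2a1b and -0.21 to -0.062 for Pmaip1; Bcl2 and Bcl2a1b each lost their call in 4 of these 8 fits, and Pmaip1 gained one in 1. With the replicate block Pmaip1 was called at -0.14; the block changed no other member's call. Over all alternatives, 142 of 152 refits entered for members kept their side of the threshold, 8 lost a call, 2 gained one and none reversed a call. The 152 include the fit of the summed Bcl2a1 copies, which is entered under both Bcl2a1b and Bcl2a1d. Bcl2l1 (1.16 to 1.25), Bcl2l11 (-0.41 to -0.27), Bak1 (-0.35 to -0.29) and Bcl2a1d (-0.63 to -0.45) stayed called in every fit run. Mcl1, Bbc3 and Bax were called in none, and Bax took either sign. No setting shifted the median of all genes by more than 0.0105 on the log2 scale. For the losses, fewer samples per fit are part of each alternative's construction. Depth limits mainly the A1 copies, at 210 to 484 counts per library.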

Other observations

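Some libraries stood at the end of their group for many members at once. How many of all tested genes did the same was not counted, so this order cannot be called particular to the members. In control replicate 1 all 3 BH3-only members were at their lowest of the 4 control libraries, and 5 of the other 7 members (Bcl2l1, Mcl1, Bcl2a1b, Bax and Bak1) were at their highest. Control replicate 4 held the highest Bcl2l11 and Pmaip1 and the lowest Bcl2, Bcl2l1, Mcl1, Bcl2a1b and Bak1. Among treated libraries, replicate 1 held the lowest Bcl2l11 and Bbc3 and the highest Bcl2a1b, Bcl2a1d, Bax and Bak1, and replicate 4 the highest Bbc3 and Pmaip1 and the lowest Bcl2, Mcl1, Bcl2a1b and Bcl2a1d. The ratio of the summed pro-survival to the summed BH3-only level was highest in replicate 1 of each group, at 5.85 and 6.08, and lowest in replicate 4, at 4.02 and 4.68. Within each number the treated library had the higher ratio, although the groups overlapped; this order was noticed in the data and was not tested.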
